A study of Homo sapiens with 6 samples.

Results

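Aminoacyl-tRNA synthetases were compared between hypoxic and normoxic EA.hy926 cells, a human hybrid line derived from umbilical vein endothelium and A549 lung carcinoma cells. The members were all genes of the deposited table whose symbol had the form xARS1 or xARS2, together with EPRS1, FARSA, FARSB and the 3 scaffold genes AIMP1, AIMP2 and EEF1E1. These were 40 of 22153 genes, of which 38 are described: 19 genes of cytosolic enzymes, 16 genes of mitochondrial enzymes and the 3 scaffolds. Counts and medians of members are over these 38. Polyadenylated RNA was sequenced from 3 libraries of cells at 20% oxygen (normoxia) and 3 libraries of cells kept for 8 h at 1% oxygen (hypoxia), both from the same line, with no other treatment or genetic change given in the labels. The study asked which genes change after 8 h at low oxygen. The labels do not say that the libraries came from separate cultures, so the p-values speak only to the spread among these 6 samples, part or all of which may be technical.

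Aminoacyl-tRNA synthetases join each amino acid to its tRNA and so supply the ribosome with charged tRNAs. The cytosol and the mitochondrion mostly use separate enzymes, all encoded in the nucleus; KARS1 and GARS1 serve both compartments. Several cytosolic enzymes sit in a large multisynthetase complex held together by AIMP1, AIMP2 and EEF1E1. When amino acids run short or the endoplasmic reticulum is stressed, the transcription factor ATF4 drives many cytosolic synthetase genes, and severe hypoxia is known to engage the same pathway.

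The libraries held 17226736 to 18652704 reads assigned to genes. The deposited values were whole reads over 1 size factor for each library, called scaled reads here. They carry no division by gene length, so levels of different genes are compared only as FPKM, rebuilt with each gene's summed exon length. The hypoxia labels were checked with ANGPTL4, a secreted regulator of lipid metabolism induced by low oxygen, and BNIP3, a mitophagy receptor. ANGPTL4 had 1667, 1051 and 1008 scaled reads in normoxia and 23449, 63581 and 32643 in hypoxia (log2 difference 4.91, limma adjusted p = 0.00758, 0.0685 without hypoxia replicate 3). BNIP3 had 520, 573 and 694 against 6951, 5879 and 7254 (log2 difference 3.47, limma adjusted p = 0.00207). Both rose, and their groups were far apart. Of 10 endothelial markers, 9 were measured above the filter, while CLDN5 averaged 0.036 FPKM. The summed level of the markers was 1084 to 1759 FPKM in normoxia and 1103 to 2255 FPKM in hypoxia. It was uneven: single markers averaged from 3.50 FPKM (KDR) to 708 FPKM (EGFL7), with ENG second at 387 FPKM and a median of 109 FPKM. Nor were all of them steady within groups. The SD within groups on the log2 scale ran from 0.19 (TEK) to 1.70 (VWF), with a median of 0.56. VWF had 3522, 2669 and 462 scaled reads in normoxia and 371, 4819 and 1568 in hypoxia. Of the epithelial markers KRT8 and KRT18 averaged 181 and 214 FPKM and MUC1 0.939 FPKM, whereas KRT19 and EPCAM averaged 0.221 and 0.163 FPKM. Of the fibroblast and mural markers RGS5 and ACTA2 averaged 8.88 and 2.89 FPKM, and PDGFRB, COL1A1 and COL1A2 0.064, 0.022 and 0.019 FPKM.

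None of the 38 synthetase and scaffold genes described passed the test between hypoxia and normoxia. Of the 38, 37 passed the filter on low values (at least 3 libraries with an FPKM of 1 or more) and were tested, and 0 of 37 had an adjusted p below 0.05 in limma, against 0.0977% of all 10237 genes tested (10 genes, all of them higher in hypoxia; 0% were lower). Run on the recovered reads, edgeR also called 0 of 37 members against 0.0977% of all genes, and DESeq2 called 0 of 38 against 0.29% of the 20006 genes to which it gave an adjusted p (0.26% higher and 0.03% lower in hypoxia). At an unadjusted p below 0.05, each of the 3 tools had 0 of these members. The share of all genes was 2.69% in limma, 2.46% in edgeR and 1.74% in DESeq2. Both DESeq2 shares include genes below the filter, the last being over 22142 genes. Of the 10237 genes tested in limma, DESeq2 called 48 and had 238 at an unadjusted p below 0.05. In 2 of the 37 members, CARS1 and SARS1, every hypoxia library lay above every normoxia library in scaled reads, against 4.77% of all genes. None of the 37 had the opposite order, against 2.72% of all genes. In bulk RNA, less RNA per cell and fewer cells of a kind cannot be told apart.

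A count of 0 past the test does not show that these genes did not change, and the width of each interval bounds the difference. The 95% confidence interval lay within 2-fold in either direction for 26 of the 37 tested members (70.3%), compared with 58.4% of all genes tested. This was the case for 12 of 19 cytosolic genes, 13 of 15 mitochondrial genes and 1 of 3 scaffold genes. The tested members had a median of 11.2 FPKM against 5.88 FPKM over all genes tested. Their median standard error was 0.257 against 0.310. The shares of intervals within 2-fold were not adjusted for abundance. The median log2 difference, hypoxia minus normoxia, was 0.05 over the cytosolic genes (11 positive, 8 negative), -0.02 over the mitochondrial genes (6 positive, 9 negative) and 0.00 over all genes tested. These medians were smaller than the spread of the same medians between libraries of 1 group, an SD of 0.26 on the log2 scale for the cytosolic genes and 0.13 for the mitochondrial genes. Their signs were not fixed either: the cytosolic median was -0.03 when libraries were scaled to their totals and -0.06 in both edgeR and DESeq2, and it lay between -0.13 (without hypoxia replicate 1) and 0.22 (without normoxia replicate 3) when 1 library at a time was left out. The mitochondrial median was 0.01 with TMM factors and 0.05 over genes with a mean FPKM of at least 5, and lay between -0.10 and 0.07 when 1 library was left out. The median over all genes moved too, to -0.07 with library totals, -0.02 in edgeR and DESeq2 and 0.03 with TMM factors. Relative to it, the cytosolic median stayed higher with library totals and the mitochondrial median lower with TMM factors. In edgeR and DESeq2 the cytosolic median was below that of all genes. At a mean FPKM of at least 5 the mitochondrial median was above it (0.02 over all genes).

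**Figure D1:**
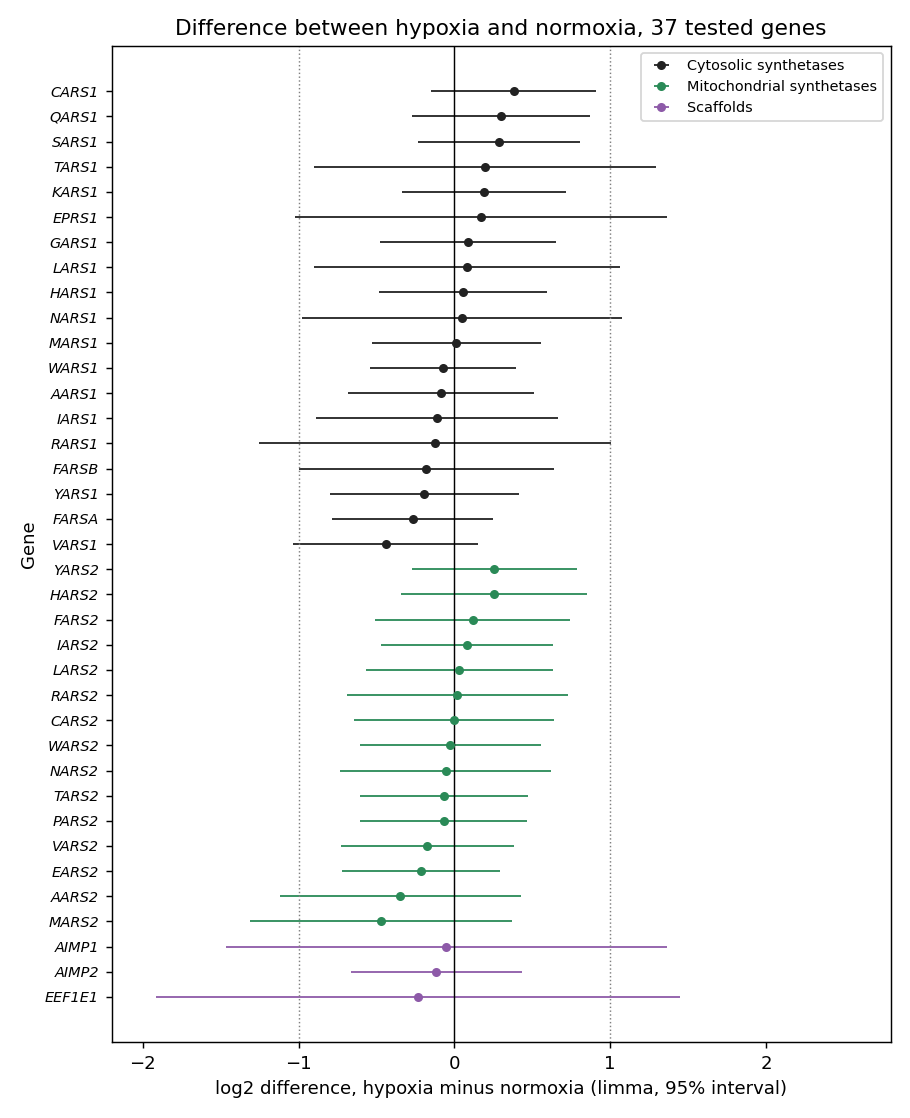
Log2 difference between hypoxia and normoxia for the 37 tested genes, with points for the limma estimate and bars for its 95% confidence interval (3 libraries per group); dotted lines mark 2-fold. All 37 intervals include 0, and 26 of them lie between the dotted lines.

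Among the cytosolic enzymes, CARS1 and SARS1 were the members whose groups did not overlap. CARS1, the cysteinyl-tRNA synthetase, had 1393, 1140 and 1420 scaled reads in normoxia and 1914, 1793 and 1461 in hypoxia (log2 difference 0.38, 95% interval -0.15 to 0.91). SARS1, the seryl-tRNA synthetase, had 3083, 2630 and 3073 against 4633, 3092 and 3171 (log2 difference 0.29, interval -0.23 to 0.81). In SARS1 the separation was slight, because 2 of the hypoxia libraries lay close to the normoxia values and hypoxia replicate 1 stood apart. It also depended on the scaling. With libraries scaled to their totals, hypoxia replicate 2 of SARS1 fell below all normoxia libraries, whereas the groups of CARS1 stayed apart. QARS1, the glutaminyl-tRNA synthetase, had 5673, 4847 and 3556 scaled reads in normoxia and 4963, 6959 and 5275 in hypoxia, so its groups overlapped (log2 difference 0.30, interval -0.27 to 0.87). TARS1, the threonyl-tRNA synthetase, had 731, 980 and 2474 scaled reads against 1834, 911 and 1607 (log2 difference 0.20, interval -0.90 to 1.29). Both the highest and the lowest of its 6 libraries were in normoxia.

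At the other end stood VARS1, the valyl-tRNA synthetase, with 2638, 1812 and 2707 scaled reads in normoxia and 1841, 2040 and 1369 in hypoxia (log2 difference -0.44, interval -1.04 to 0.15). The lowest normoxia library of VARS1 lay below 2 of the hypoxia libraries. YARS1, the tyrosyl-tRNA synthetase, had 2654, 1806 and 2296 scaled reads against 2458, 1983 and 1511 (log2 difference -0.19, interval -0.80 to 0.42). Again the groups overlapped.

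Cytosolic phenylalanyl-tRNA synthetase is built from 2 different subunits. Its catalytic subunit gene FARSA had 4607, 3578 and 5079 scaled reads in normoxia and 4209, 3701 and 3073 in hypoxia (log2 difference -0.27, interval -0.78 to 0.25). The gene of the other subunit, FARSB, had 288, 335 and 562 against 468, 234 and 337 (log2 difference -0.18, standard error 0.35). Per exon length the levels of the subunit mRNAs were unequal: FARSA averaged 92.9 FPKM and FARSB 6.16 FPKM, a ratio of 12.4 to 22.1 in the single libraries and of 20.2 with the length of the principal transcript in place of summed exons. The GC content of the longest transcript was 60.3% for FARSA and 41.6% for FARSB, and the ratio was not adjusted for it. FARSA was also the second most abundant cytosolic member, after the alanyl-tRNA synthetase AARS1.

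AARS1 (ENSG00000090861, chr16:70252295-70289543, minus strand) averaged 106 FPKM. Its libraries held 9806, 7000 and 9382 scaled reads in normoxia and 9778, 9206 and 5978 in hypoxia, with the lowest and nearly the highest value of all 6 libraries both in hypoxia (log2 difference -0.09, interval -0.68 to 0.51). The other 10 cytosolic genes described, EPRS1, GARS1, HARS1, IARS1, KARS1, LARS1, MARS1, NARS1, RARS1 and WARS1, whose first letter names the amino acid in single-letter code (EPRS1 joins the glutamyl and prolyl enzymes in a single chain), had log2 differences between -0.12 (RARS1) and 0.19 (KARS1), and the groups overlapped in each of them. The summed level of the 19 cytosolic genes was 587 ± 83.6 FPKM (SD, n = 3) in normoxia and 584 ± 81.8 FPKM (SD, n = 3) in hypoxia.

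**Figure D2:**
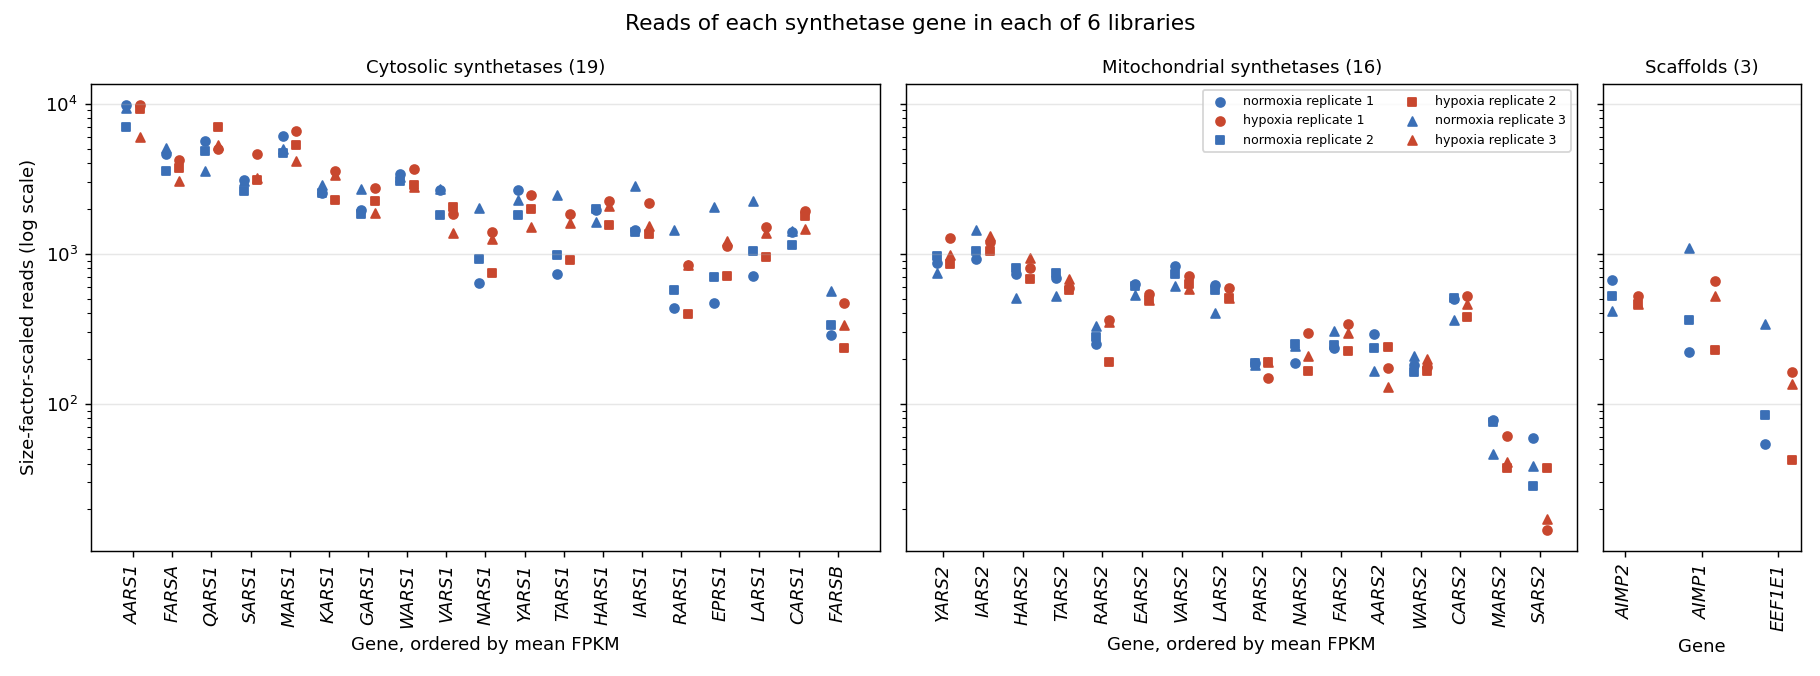
Size-factor-scaled reads (log scale) of 19 cytosolic, 16 mitochondrial and 3 scaffold genes in each of the 6 libraries, with blue for normoxia, red for hypoxia and a marker shape for each replicate number. The red and blue points of CARS1 and SARS1 are just apart, and in several genes normoxia replicate 3 (blue triangle) stands high above the other normoxia libraries.

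Cytosolic enzymes were also grouped by where they work. The 7 of the genes described that belong to the multisynthetase complex (EPRS1, IARS1, KARS1, LARS1, MARS1, QARS1 and RARS1) had a median log2 difference of 0.08, with 5 positive and 2 negative, and the 12 outside it a median of -0.01, with 6 of each sign. By the fold of the catalytic domain, over both compartments, the 19 class I genes had a median of -0.00 and the 15 tested class II genes a median of 0.05. EPRS1, which also holds the prolyl enzyme, was counted in class I only. The median of the complex was -0.06 in edgeR and DESeq2, -0.27 without normoxia replicate 1 and 0.25 without normoxia replicate 3. None of these groups had a member past the limma test.

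The 12 cytosolic genes linked to ATF4 (AARS1, CARS1, EPRS1, GARS1, IARS1, LARS1, MARS1, NARS1, SARS1, TARS1, WARS1 and YARS1) had a median log2 difference of 0.06, with 8 positive and 4 negative, and the 7 other cytosolic genes described a median of -0.12, with 3 positive and 4 negative. The sign of the ATF4-linked median was not fixed: it was -0.06 in edgeR and DESeq2, -0.01 with library totals, and from -0.09 (without hypoxia replicate 1) to 0.29 (without normoxia replicate 3) with 1 library left out. With library totals the median over all genes was -0.07. The list was taken from textbook knowledge of the amino acid response. ATF4 itself had 6527, 4806 and 10628 scaled reads in normoxia and 10713, 8345 and 7645 in hypoxia (log2 difference 0.35, interval -0.37 to 1.06), and normoxia replicate 3 was about as high as the highest hypoxia library. ATF4 is controlled mainly at translation, which these libraries do not measure.

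Promoter windows from RefSeq (GRCh38.p14), from 250 bases before to 50 bases after each start site, were found for 33 of the 38 members; those of AARS2, LARS1, VARS1, VARS2 and YARS1 were not used here. They were searched on both strands for TGATGNAA, the core of the element that ATF4 binds with its C/EBP partners. Of all 35116 windows, 3.62% held it, and of all genes with a window 4.46%. Among the members it was found in 8 of 33 genes: 7 of the 10 ATF4-linked genes with a window, 0 of the 6 other cytosolic genes, 1 of 14 mitochondrial genes and 0 of 3 scaffolds. The ATF4-linked list came from prior knowledge that may rest in part on this element, so the split is not an independent result. The stretches are shown so that the motif and its surroundings can be compared between the genes; each is 30 bases, written 5′ to 3′ on the gene's strand, with the motif in capitals on whichever strand it was read.
AARS1 (chr16:70289675-70289704, minus strand): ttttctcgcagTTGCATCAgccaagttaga
CARS1 (chr11:3057407-3057436, minus strand): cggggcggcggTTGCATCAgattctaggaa
GARS1 (chr7:30594834-30594863, plus strand): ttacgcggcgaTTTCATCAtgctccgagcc
IARS1 (chr9:92293692-92293721, minus strand): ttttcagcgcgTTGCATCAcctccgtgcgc
MARS1 (chr12:57488053-57488082, plus strand): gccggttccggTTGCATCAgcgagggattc
NARS1 (chr18:57621804-57621833, minus strand): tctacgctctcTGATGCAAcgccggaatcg
TARS1 (chr5:33440956-33440985, plus strand): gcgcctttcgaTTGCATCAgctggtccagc
YARS2 (chr12:32756076-32756105, minus strand): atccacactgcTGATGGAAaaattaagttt

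In 6 of these genes (AARS1, CARS1, IARS1, MARS1, NARS1 and TARS1) the capitals spell the same 8 letters on one strand or the other, TTGCATCA or its reverse complement TGATGCAA, whereas GARS1 and YARS2 differ from it at the variable position. The first base of the motif lay between position -33 and position 15 from the start site in 6 of the 8 genes, at -187 in AARS1 and at -197 in YARS2. A match is a description of the letters and not evidence that a factor was bound. Log2 differences of the 8 genes ranged from -0.11 (IARS1) to 0.38 (CARS1), with 6 positive, and none of them passed the test.

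The short core of the hypoxia response element was searched for in the same windows. ACGTG on either strand stood in 10 of 33 members (30.3%), against 24.9% of all genes and 21.4% of all windows. GCGTG stood in 28 of 33 (84.8%), against 40.6% of all genes and 36.5% of all windows. Either form stood in 80.0% of the 45 windows of the members and in 48.4% of all windows. These shares were not adjusted for base composition, and a motif was counted whether or not it overlapped another.

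Among the mitochondrial enzymes, the 15 tested genes spanned log2 differences from -0.47 to 0.26, none passed the test, and in none were the groups apart. Their summed level, with SARS2 included, was 99.6 ± 5.41 FPKM (SD, n = 3) in normoxia and 104 ± 12.05 FPKM (SD, n = 3) in hypoxia. YARS2, the tyrosyl enzyme and the most abundant of them at 24.7 FPKM, had 870, 971 and 747 scaled reads in normoxia and 1280, 855 and 984 in hypoxia (log2 difference 0.26, interval -0.27 to 0.79). HARS2, the histidyl enzyme, had 730, 808 and 510 against 802, 682 and 941 (log2 difference 0.26, interval -0.34 to 0.85). In YARS2 2 of the 3 hypoxia libraries exceeded all normoxia libraries, in HARS2 1 of the 3, and the rest fell among the normoxia values.

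IARS2, the isoleucyl enzyme and second in abundance at 15.6 FPKM, had 929, 1040 and 1429 scaled reads in normoxia and 1202, 1040 and 1306 in hypoxia (log2 difference 0.08, interval -0.47 to 0.63). FARS2, which unlike the cytosolic enzyme charges phenylalanine as a single chain, had 236, 245 and 306 against 342, 226 and 295 (log2 difference 0.12, interval -0.51 to 0.74). For IARS2 all 3 hypoxia libraries lay inside the normoxia range.

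MARS2, the methionyl enzyme, had the most negative estimate among the tested mitochondrial genes, with 78.4, 75.8 and 46.1 scaled reads in normoxia and 61.2, 37.3 and 40.9 in hypoxia (log2 difference -0.47, interval -1.31 to 0.37). AARS2, the alanyl enzyme, had 291, 237 and 166 against 173, 241 and 130 (log2 difference -0.35, interval -1.12 to 0.43). In both of these low-abundance genes normoxia replicate 3 fell among the hypoxia values. EARS2, the glutamyl enzyme, had 630, 609 and 529 against 536, 492 and 489 (log2 difference -0.21, interval -0.72 to 0.29), with 1 hypoxia library just above the lowest normoxia library. VARS2, the valyl enzyme, had 832, 734 and 613 scaled reads in normoxia and 710, 631 and 578 in hypoxia (log2 difference -0.17, interval -0.73 to 0.38), so that 2 of the hypoxia libraries lay inside the normoxia range.

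SARS2, the seryl enzyme, was the member below the filter, at 0.564 FPKM on average. It held 56, 30 and 41 recovered reads in normoxia and 14, 36 and 18 in hypoxia (59.3, 28.4 and 38.6 against 14.5, 37.3 and 17.1 scaled reads). The second hypoxia library lay within the normoxia range, and the DESeq2 log2 difference was -0.87, against -0.52 for MARS2. Its exons share 1492 bases, 46.2% of their length, with a second gene on the same strand that is not analysed here, and 349 bases with MRPS12 on the other strand, so its level is uncertain.

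Of the scaffolds, EEF1E1 and AIMP1 were the most variable members. EEF1E1 had 54.0, 84.3 and 340 scaled reads in normoxia and 163, 42.5 and 136 in hypoxia, and AIMP1 had 221, 364 and 1092 against 659, 229 and 523. In both genes normoxia replicate 3 was the highest of the 6 libraries and the intervals were correspondingly wide, from -1.92 to 1.45 for EEF1E1 (log2 difference -0.23) and from -1.47 to 1.36 for AIMP1 (log2 difference -0.05). AIMP2 was steadier, with 663, 524 and 413 scaled reads in normoxia and 525, 460 and 465 in hypoxia (log2 difference -0.12, interval -0.67 to 0.43). The median SD within groups was 0.99 on the log2 scale over the 3 scaffolds, against 0.38 over all genes tested. Their median log2 difference of -0.12 was -0.55 without normoxia replicate 1 and 0.52 without normoxia replicate 3.

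Some of the variation between libraries of 1 group went with the base composition of the genes. Across all genes tested, each library's deviation from its group mean correlated with GC content at 0.63, 0.22 and -0.57 in normoxia replicates 1, 2 and 3 and at -0.33, 0.50 and -0.35 in hypoxia replicates 1, 2 and 3. The library pairs described next have opposite signs in these values and were chosen with them known. Longest-transcript GC content ranged from 36.3% (AIMP1) to 62.6% (VARS1) over the 38 members. The log2 difference between normoxia replicates 3 and 1, with 0.1 added to each FPKM, correlated with GC content across the 38 genes (Pearson r = -0.76, Spearman rho = -0.71), as did that between hypoxia replicates 1 and 2 (r = -0.81, rho = -0.79). Over all genes tested with a GC value these Pearson correlations were -0.61 and -0.45. These correlations are across genes that share the same libraries, and genes are not independent replicates. The AT-rich genes EEF1E1, AIMP1 and EPRS1 were 6.30, 4.93 and 4.35 times as high in normoxia replicate 3 as in normoxia replicate 1, and 7 of the 38 members were at least 2-fold higher there. Single genes departed from this trend. RARS2 and WARS2, with less GC than EPRS1, were 1.32 and 1.15 times as high in normoxia replicate 3 as in replicate 1. At the GC-rich end the ratio was 0.627 for QARS1 and 0.571 for AARS2, but 1.03 for VARS1 and 1.10 for FARSA. The 9 tested endothelial markers, with a median GC content of 54.5%, also differed between these libraries. Their median log2 deviation was 0.34 and -0.68 in normoxia replicates 1 and 3, and -0.56 and 0.50 in hypoxia replicates 1 and 2. KDR, with 47.0% GC, had a ratio of 0.394 between normoxia replicates 3 and 1, and TEK, with 45.1%, 1.01. What lay behind these differences was not tested.

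For the comparison of hypoxia with normoxia the correlation with GC content was weaker, at r = -0.32 and rho = -0.25 over the members and r = -0.02 over all genes tested. Over the 19 cytosolic genes it was r = -0.32 and rho = -0.19. Over the 16 mitochondrial genes, with SARS2 included, it was stronger, at r = -0.49 and rho = -0.47. With a correction for GC content and gene length within each library the cytosolic, mitochondrial and scaffold medians were 0.07, -0.05 and -0.20. Normoxia replicate 3 was the highest normoxia library for 18 of the 38 members, and hypoxia replicate 1 the highest hypoxia library for 28 of them.

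**Figure D3:**
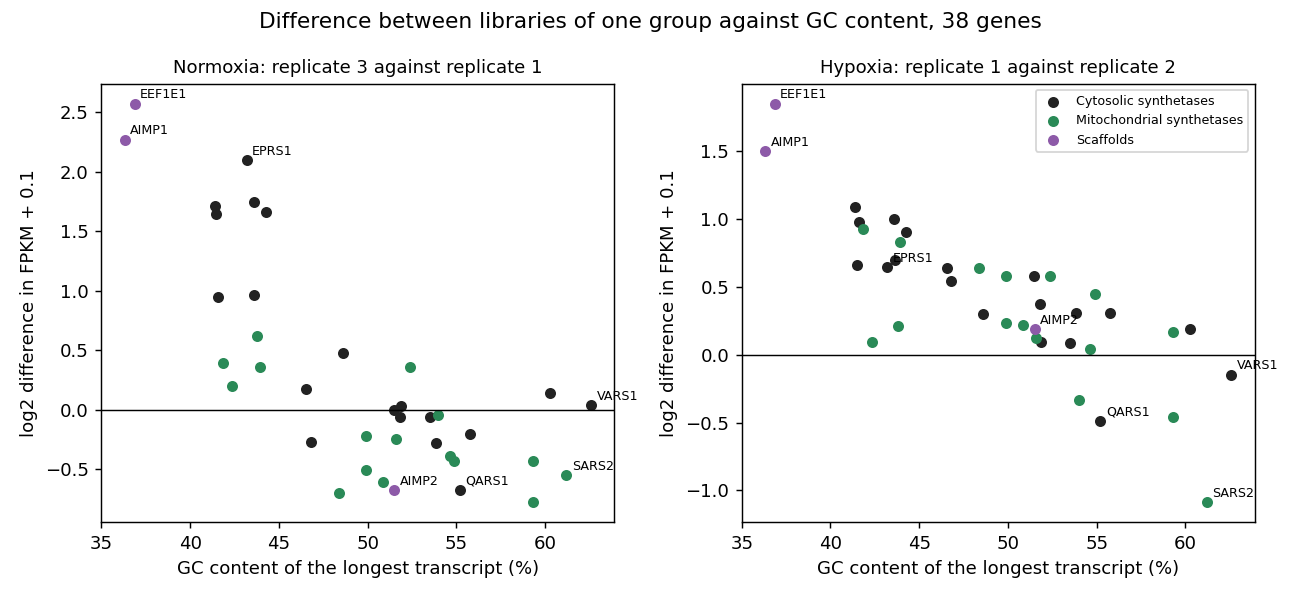
Log2 difference in FPKM + 0.1 between 2 libraries of the same group against the GC content (%) of the longest transcript, for 38 genes; left, normoxia replicate 3 against 1, and right, hypoxia replicate 1 against 2. The AT-rich genes EEF1E1 and AIMP1 lie at the top left of each panel, and the GC-rich genes QARS1, AARS2 and SARS2 lie below 0 in both, whereas FARSA lies above 0 in both.

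For 13 amino acids a cytosolic and a mitochondrial enzyme with a gene of its own were compared. The cytosolic mRNA had the higher mean FPKM in 11 of the 13 pairs and was higher in every library in 9 of them. The gap was widest for SARS1 over SARS2 (84.9-fold, 47.9 against 0.564 FPKM), MARS1 over MARS2 (40.3-fold, 42.3 against 1.05 FPKM) and AARS1 over AARS2 (39.5-fold, 106 against 2.69 FPKM). With the length of the principal transcript in place of summed exons these ratios were 112, 97.4 and 45.8. The ratio of SARS1 to SARS2 ran from 43.8 to 269 in the single libraries, a range that overlapped those of MARS1 and AARS1. SARS2 was also below the filter and its level uncertain, so the size and rank of this gap are uncertain. Among the 11 the ratio was smallest for HARS1 and HARS2, neighbours on chromosome 5 read in opposite directions, at 1.22-fold (13.6 against 11.2 FPKM), but it was 2.64-fold with the principal transcript's length. The exceptions were IARS2, at 15.6 FPKM against 13.6 FPKM for IARS1, and YARS2, at 24.7 FPKM against 14.4 FPKM for YARS1. YARS2 was above YARS1 in all 6 libraries, whereas IARS1 was above IARS2 in 2 of them. Both exceptions depended on the length used: with the length of the principal transcript, the cytosolic gene was higher in all 13 pairs, at 1.19-fold for IARS1 over IARS2 and 1.46-fold for YARS1 over YARS2.

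**Figure D4:**
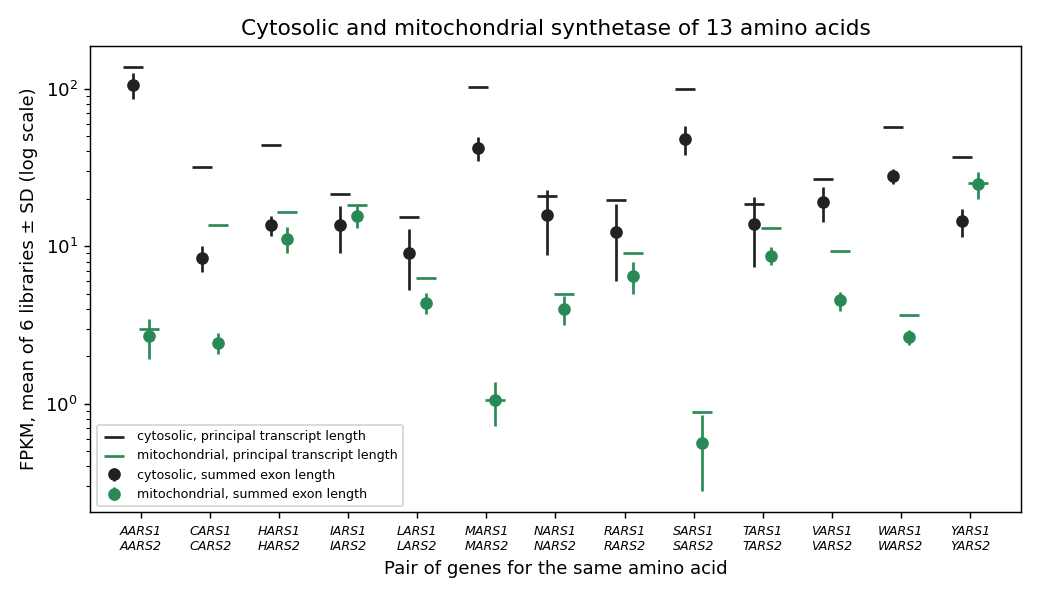
Mean FPKM (log scale) of the cytosolic and mitochondrial synthetase of 13 amino acids, with bars for the SD over all 6 libraries and dashes for the mean FPKM with the principal transcript's length. The black cytosolic points lie above the green mitochondrial points in 11 pairs, and the black dashes above the green dashes in all 13.

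Genes that work beside the synthetases were read from lists of related pathways. In the amino acid response list, 18 of 20 genes were tested and 0 passed the limma test (0 also in edgeR and DESeq2, and 0 at an unadjusted p below 0.05 in each), with a median log2 difference of 0.09. The largest difference was that of DDIT3, a stress-induced transcription factor, with 530, 331 and 905 scaled reads in normoxia and 1286, 722 and 672 in hypoxia (log2 difference 0.66, interval -0.28 to 1.59). The most negative was that of the cystine transporter gene SLC7A11, with 373, 394 and 1732 against 668, 384 and 385 (log2 difference -0.45, interval -1.80 to 0.90). Normoxia replicate 3 was the highest of the 3 normoxia libraries in both genes. DDIT3 also shares 355 bases of exon sequence with MARS1 on the other strand.

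ASNS, the asparagine synthetase gene and a standard ATF4 target, was below the filter, with 5, 7 and 5 recovered reads in normoxia and 19, 10 and 7 in hypoxia. It shares 1985 bases, 44.6% of its exons, with a second gene of the table on the same strand, and its level is uncertain for that reason. XPOT, the exportin that carries tRNA out of the nucleus, had 1233, 1487 and 2925 scaled reads in normoxia and 2343, 1517 and 1523 in hypoxia (log2 difference 0.00, interval -0.83 to 0.84). TARS3, a threonyl-tRNA synthetase-like gene outside the rule, held 35, 53 and 54 recovered reads against 50, 30 and 31 and was below the filter. XPOT and TARS3 overlapped between the groups, and in ASNS the lowest hypoxia library had as many reads as the highest normoxia library.

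Among genes of tRNA handling and editing, 17 of 19 were tested and 0 passed the limma test (0 also in edgeR and DESeq2, and 0 at an unadjusted p below 0.05 in each); the median was -0.06, with 4 positive and 13 negative. The tRNA 3′ end-processing nuclease gene ELAC2 and the tRNA methyltransferase gene NSUN2 had every hypoxia library below every normoxia library, at log2 differences of -0.19 and -0.27; these are 2 of 17 genes, and 2.72% of all genes had this order. RTCB, the tRNA ligase, was at the upper end with 1774, 1952 and 2044 scaled reads in normoxia and 2387, 1691 and 2391 in hypoxia (log2 difference 0.15), and POP1, a subunit of RNase P, at the lower end with 236, 279 and 278 against 361, 125 and 186 (log2 difference -0.36). The groups overlapped in both.

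Elongation factors receive the charged tRNAs. In the cytosolic elongation list 0 of 6 genes passed the limma test (0 also in edgeR and DESeq2, and 0 at an unadjusted p below 0.05 in each), and the median was 0.10. EEF1D, a subunit of the exchange factor, had 4494, 3898 and 2201 scaled reads in normoxia and 6125, 4966 and 4704 in hypoxia (log2 difference 0.63, interval -0.06 to 1.31). EEF1A1, which delivers charged tRNA to the ribosome, had a log2 difference of 0.52 (interval -0.03 to 1.08), and EEF2K, the kinase that restrains elongation, had 1050, 1028 and 592 against 582, 1024 and 669 (log2 difference -0.22, interval -0.98 to 0.54). In EEF1D and EEF1A1 every hypoxia library lay above every normoxia library, an order found in 4.77% of all genes, and the lowest library of both was normoxia replicate 3.

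In the mitochondrial translation list 12 of 13 genes were tested and 0 passed the limma test (0 also in edgeR and DESeq2, and 0 at an unadjusted p below 0.05 in each), at a median of 0.11. Mitochondria have no glutaminyl-tRNA synthetase of their own: EARS2 charges the glutamine tRNA with glutamate, which the complex of QRSL1, GATB and GATC converts. QRSL1 had 157, 195 and 150 scaled reads in normoxia and 236, 178 and 274 in hypoxia (log2 difference 0.42, interval -0.24 to 1.08), GATC had 542, 571 and 783 against 610, 455 and 458 (log2 difference -0.31, interval -0.89 to 0.28), and GATB had a log2 difference of 0.09. The 3 subunits thus did not share a sign, and 0 lay within the interval of QRSL1 and of GATC.

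The medians of these lists moved when 1 library was left out: between -0.13 and 0.28 for the amino acid response, -0.21 and 0.04 for tRNA handling, 0.06 and 0.31 for cytosolic elongation, and -0.15 and 0.34 for mitochondrial translation.

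**Figure D5:**
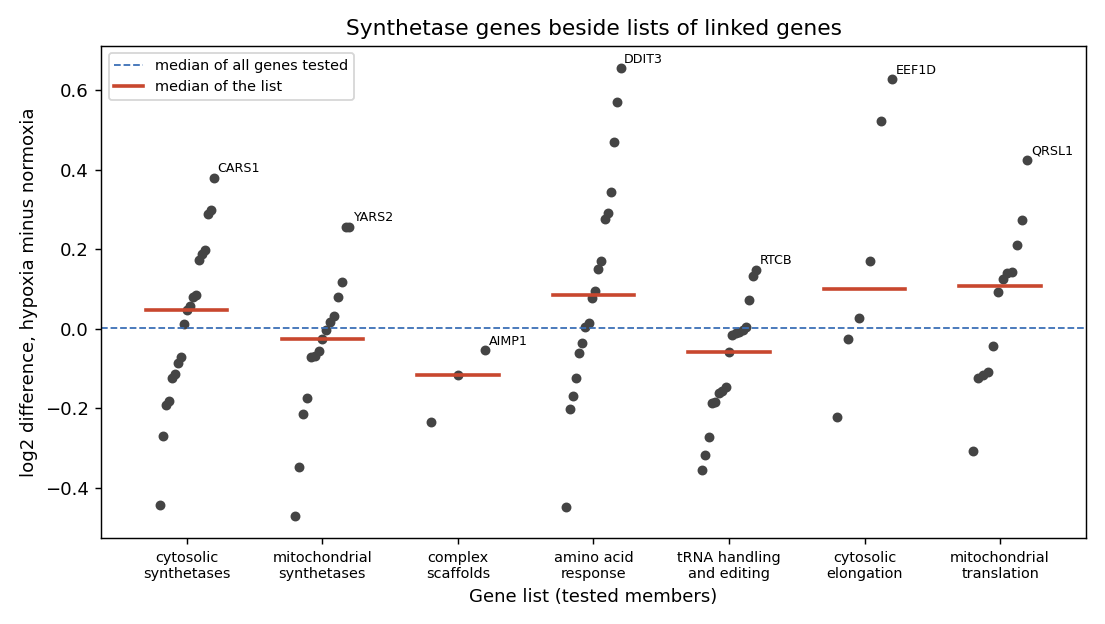
Log2 difference between hypoxia and normoxia of each tested gene (points) in the cytosolic, mitochondrial and scaffold groups and in 4 lists of linked genes, with a red bar for the median of each list and a dashed line for the median of all genes tested. The list medians lie between -0.12 and 0.11, and DDIT3 is the highest point.

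Many of the members lie close to other genes. Of the 38, 17 share exon bases with another gene of the table, 16 of them with a gene on the opposite strand and 2 with one on the same strand. The largest shares with genes of the table were 28.9% of the exons of AIMP2, which overlaps the heme-regulated kinase gene EIF2AK1 by 532 bases, and 22.0% of those of VARS2, which overlaps GTF2H4 by 1858 bases on the same strand. Overlaps with genes outside the table are not in these counts. The largest of those, both on the same strand, were 46.2% of the exons of SARS2 and 18.7% of those of EEF1E1 (393 bases, with EEF1E1-BLOC1S5). HARS1 and HARS2 share 437 bases at their facing ends. No source used here gives the strand setting of the counting, so reads from these stretches cannot be assigned to a single gene with certainty.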

How the data were processed

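Polyadenylated RNA of 3 normoxia and 3 hypoxia libraries was analysed from the 1 deposited table. Per the submitters' processing notes the tools were CASAVA, HISAT2 2.0.5 and featureCounts 1.5.0-p3; a mouse build is listed there too, although all 22153 identifiers are human Ensembl identifiers. Annotation and strand setting: not given in the sources used here. In that table the deposited signal, named FPKM by the authors, is whole reads over 1 size factor per library: 100% of values were whole multiples of a library's step (tolerance 0.05 of a step).

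Positions, lengths and overlaps came from GENCODE 29 (GRCh38), and 21988 identifiers had a symbol in the name table. Values were divided by summed exon length and mean library total to give FPKM. The planned test was for FPKM and was kept on this scale. Genes that reached FPKM 1 in 3 or more libraries were fitted with limma 3.58.1 (R 4.3.3) on log2(FPKM + 0.1), with a mean-variance trend, robust variances and Benjamini-Hochberg adjustment over 10237 genes; adjusted p below 0.05 was the threshold, and tests were two-sided. On this scale differences of weakly expressed genes are understated. The fit was tested on simulated data, where it recovered most of the larger changes but missed nearly all of those of the smallest size simulated. Counts were recovered for edgeR 4.0.16 and DESeq2 1.42.0. Folds are ratios of group means of scaled reads.

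Alternatives were pseudocounts of 0.01 and 1, no filter or a mean FPKM of 5 or more, TMM factors, library totals, no length division, edgeR, DESeq2, the replicate number as a block, a loess correction for GC content and length, both together, and each library left out; principal transcript lengths were added after seeing the data. Not all same-numbered libraries deviated together. The deviations also went with GC content, so they cannot show whether the numbers pair the libraries. The numbers were not taken as pairs.

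The members and lists were chosen with earlier results of these data known. Library values are given for the 4 most positive and 4 most negative of the tested genes described in each compartment, the scaffolds, the 2 most abundant of each compartment, the gene below the filter, ATF4, ASNS, XPOT, TARS3, the extremes of each related list, and ANGPTL4 and BNIP3. EEF1G and C12orf65 were not analysed here, nor were protein sequences, and 2 members by the rule are not reported here.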

Additional observations from a re-analysis of the deposited data

How the results depend on the processing

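None of the members described passed the test in any of the 18 alternatives, and all 656 alternative log2 differences of the members lay within 1 SD of the reported one. For some alternatives that closeness was fixed in advance. The replicate block by itself leaves the estimate unchanged, and leaving out 1 of 3 libraries moves it by less than the SD within groups. The smallest adjusted p among them was 0.829. Signs were less stable: 24 of the 37 tested members changed sign in at least 1 alternative and 13 kept it. The number of all genes past the test, 10 as reported, was 4 with no filter, 58 in DESeq2 and 30 with the correction. Without 1 library it ranged from 1 (hypoxia replicate 3) to 20 (normoxia replicate 3), and it was 4 when normoxia replicate 1 was left out, 5 for normoxia replicate 2, 5 for hypoxia replicate 1 and 3 for hypoxia replicate 2. With the replicate number as a block it was 19, and 21 with the block and the correction; the cause was not tested. Same-numbered libraries correlated at -0.40, 0.24 and 0.22 in their deviations from the group means, and normoxia replicate 1 correlated best with hypoxia replicate 2 (0.61), so not every sample correlated best with its own number; the block changed no call of these members. With the principal transcript's length, CARS1 averaged 31.7 FPKM in place of 8.48. For 11 of the 37 members the interval reached beyond 2-fold, among them VARS1 and TARS1, whereas that of WARS2, with fewer reads, lay within it.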
